A study of Rattus with 4 samples.

Results

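The genes described here encode the non-collagen proteins of the extracellular matrix: adhesive glycoproteins, elastic fibre proteins, proteoglycans, laminins and nidogens, and proteins that cross-link or help process matrix. They were a list of 42 named genes, found by symbol in a table of read counts per gene. Of the 42, 41 were among the 13731 genes of the table, and 32 had enough reads to be tested. Lum was not found by symbol and was not analysed here. The list was drawn up with earlier results of these data known.

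The matrix of connective tissue is laid down by fibroblasts. Fibronectin and the matricellular proteins link cells to it, fibrillin microfibrils carry elastin to form elastic fibres, small leucine-rich proteoglycans bind collagen fibrils, and laminins with nidogens and perlecan form the basement membrane. In the heart this network transmits force and, when it is overproduced, stiffens the wall as fibrosis. Matrix mRNAs are translated on the endoplasmic reticulum and are among the most abundant messages of a fibroblast.

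The study set RNA recovered with an antibody to NONO against the input RNA of cultured cells from rat heart, with 2 libraries of each kind. NONO is a nuclear protein that binds RNA and DNA and is a core part of paraspeckles. In RNA immunoprecipitation sequencing, an antibody recovers a protein with the RNA bound to it, and that RNA is sequenced beside the input. The 2 input libraries are labelled as cells transfected with an empty vector, with no antibody. The 2 NONO IP libraries are labelled as cells transfected with NONO siRNA, precipitated with an anti-NONO antibody, so precipitation and knockdown cannot be told apart by these labels. No control antibody library was used here. The titles name H9C2, a rat cardiac myoblast line, while the growth protocol describes a line of rat cardiac fibroblasts. The labels do not say whether the replicates came from separate cultures, so a p-value here speaks only of the spread among these libraries, which may be technical.

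Nono itself counted 21 and 9 input reads against 3 and 3 reads after precipitation, too few for the filter on low counts. The collagen gene Col1a1 was lower by little (−0.42, SE 0.054, edgeR adjusted p = 5.43e-06). Gene counts summed to between 238776 and 279410 per library, which is shallow, and 3 reads corresponded to between 10.2 and 15.9 CPM, read counts relative to library size after TMM scaling. Ribosomal RNA held 41.7% ± 0.786 of counts in the inputs against 32.0% ± 0.172 in the NONO IP (SD, n = 2 libraries). The 9 fibroblast markers found, of 10 listed, summed to 98486 and 100005 CPM in the inputs against 69066 and 69161 CPM in the NONO IP, nearly all of it collagen mRNA. Of the defining fibroblast markers, Tcf21 had 2 and 3 input reads, Thy1 6 and 17 and Pdgfra 9 and 11, and Pdgfra was higher in the NONO IP (log2 fold change 1.04, edgeR adjusted p = 0.0162). The 7 smooth muscle and pericyte markers found, of 8, summed to 4424 and 4533 CPM in the inputs against 1828 and 1875 CPM in the NONO IP. Cardiomyocyte markers (10 of 14 found) summed to between 278 and 376 CPM in every library, and the 2 skeletal myoblast markers found, of 8, to between 10.2 and 17.9 CPM, with Myod1, Myog and Pax7 not found by symbol. Macrophage and leukocyte markers (6 of 8) summed to 72.1 and 74.1 CPM in the inputs against 13.5 and 3.57 CPM in the NONO IP, and the 3 endothelial markers found, of 8, had 1 to 6 reads per library. The fibroblast and smooth muscle sums were lower in the NONO IP as the matrix genes were, and their part in the results was not tested. In pooled RNA, less recovery by the antibody, fewer cells of a type and less RNA per cell cannot be told apart.

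Nearly all the matrix genes that could be tested were lower in the NONO IP than in the input. Of 32 tested, 30 were lower at an adjusted p under 0.05, 1 was higher (Bgn, biglycan) and 1 did not pass (Eln, elastin), by edgeR's quasi-likelihood test with Benjamini-Hochberg adjustment over 2920 genes. Among all genes tested, 56.7% passed in either direction, 26.9% as lower and 29.8% as higher. The median log2 fold change was −1.35 over the 32 genes and 0.024 over all 2920. At least 2-fold lower were 21 of the 32, against 19.5% of all genes tested. Both NONO IP libraries lay below both inputs for 31 of the 32 genes, which held for 37.3% of all genes tested, and Bgn lay above, as 40.6% of all genes did. Vcan, Thbs2 and Fbn2 passed the filter only through their input reads, so a lower level was built into their being tested. Of the 29 others, 27 were lower and 1 was higher.

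**Figure D1:**
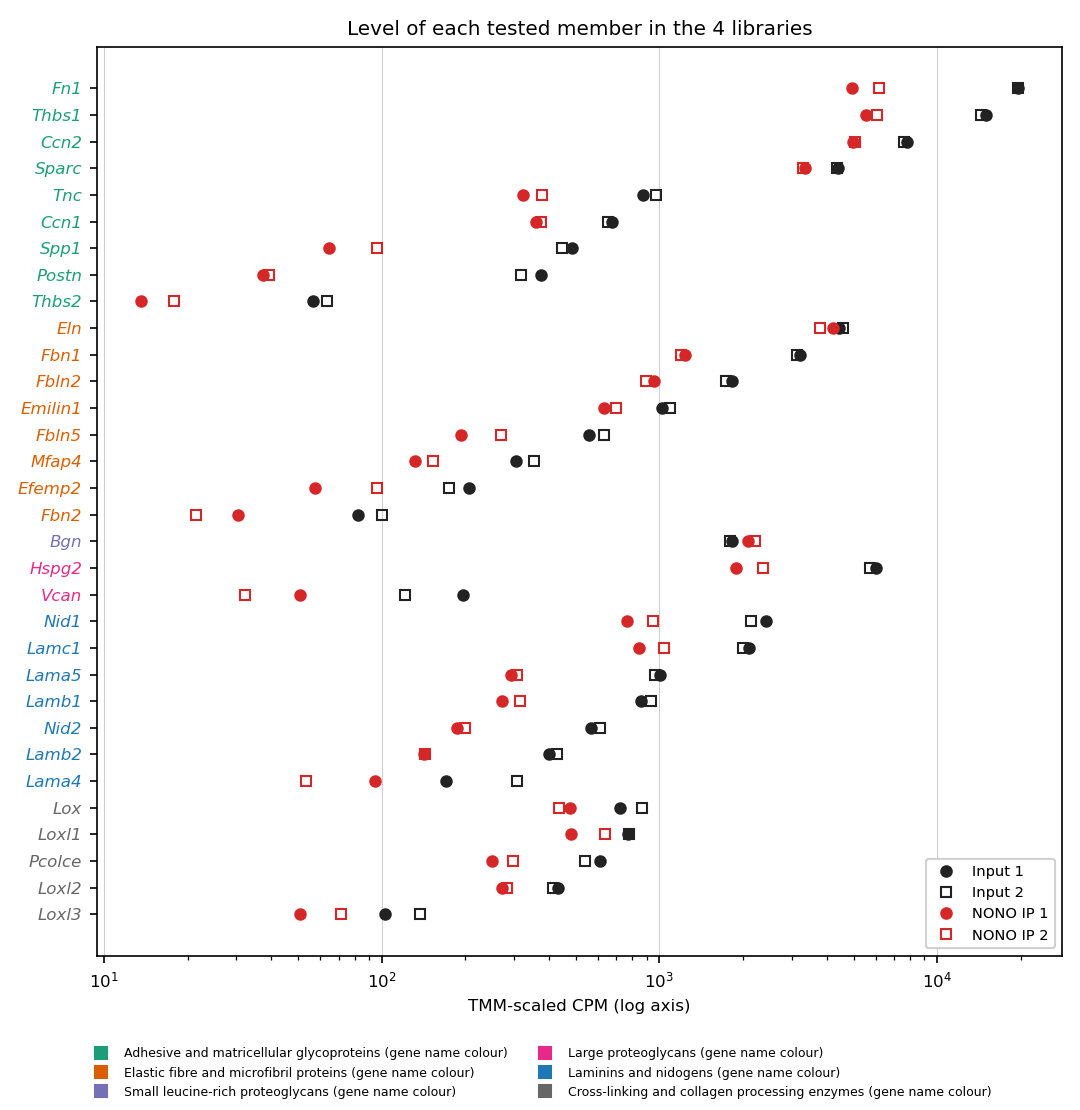
Level of each of the 32 tested genes in each library, as TMM-scaled CPM on a log axis, with inputs in black and NONO IP in red and gene names coloured by role. The red points lie to the left of the black ones for every gene except Bgn, where they lie to the right, at 2093 and 2215 against 1829 and 1789 CPM.

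Most of the tested matrix genes were abundant, and abundant messages as a whole were lower in the NONO IP. Of 299 other protein-coding genes with at least 100 input reads, 68.6% were lower and 13.4% higher, with a median log2 fold change of −0.81. Of the 26 matrix genes with at least 100 input reads, 24 were lower and 1 higher, with a median of −1.27. Within the 32 tested matrix genes the relation ran the other way. Log2 fold change had a Spearman rho of 0.36 with input reads there, and of −0.62 over the 2777 protein-coding genes tested. Fold change and input count share the input libraries.

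Each tested gene was then set beside the tested protein-coding genes outside the list whose input count lay within 1.5-fold of its own. The fold change was below the median of such genes for 21 of the 32 and above it for 11, and the median difference was −0.51. Among the 26 genes with at least 100 input reads the split was 15 below and 11 above, with a median difference of −0.30. All 6 genes with fewer input reads lay below, where many comparison genes had reached the filter through their NONO IP reads. In all, 16 of the 32 lay among the lowest 25% of their comparison genes and 2 among the highest 25%, Eln and Bgn. The 16 include Vcan, Thbs2 and Fbn2, which passed the filter only through input reads. Of the 29 other genes, 18 lay below and 11 above, with a median difference of −0.44, and 13 lay among the lowest 25%. The comparison was thin for the 7 most abundant genes, which had fewer than 10 comparison genes each. For Fn1 and Thbs1 these were all fibrillar or basement membrane collagens. Of the 19 genes with at least 100 input reads and at least 10 comparison genes, 9 lay among the lowest 25% and 1 among the highest 25%.

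**Figure D2:**
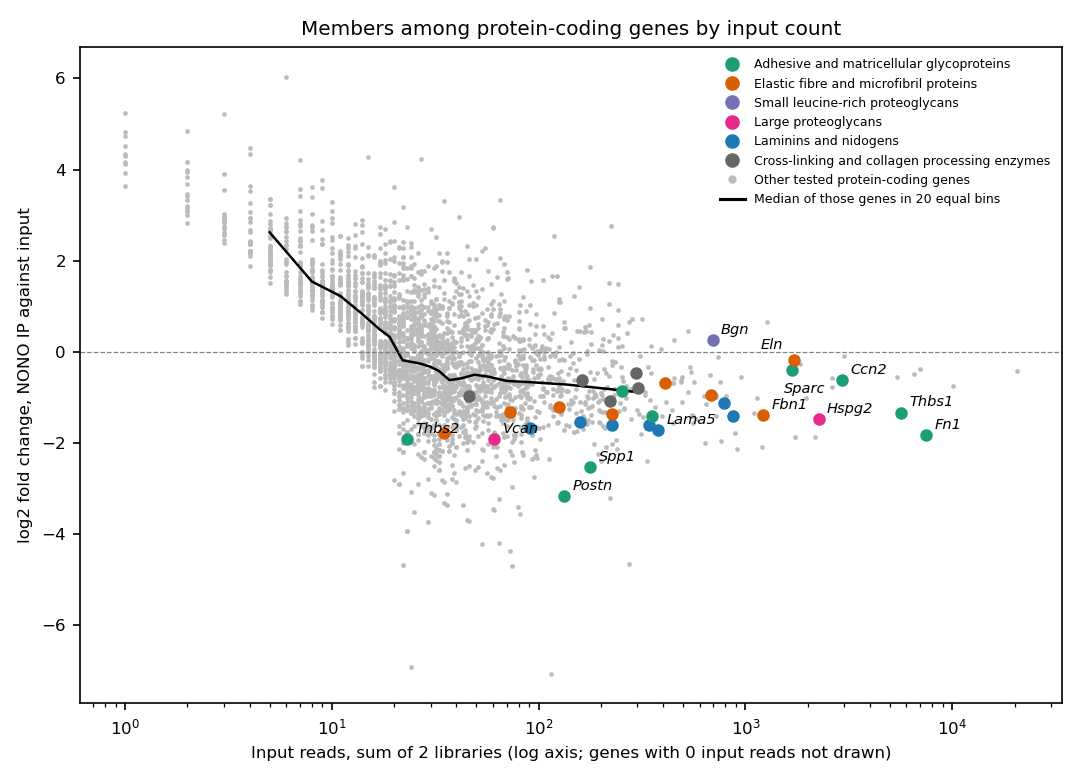
Log2 fold change (NONO IP against input) by input reads, on a log axis, for the 32 tested matrix genes (coloured by role) and the other tested protein-coding genes (grey), whose median in 20 bins of equal gene number is the black line. The grey median falls as input reads rise, most steeply where genes could pass the filter through NONO IP reads alone; Postn and Spp1 lie far below it and Bgn above.

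The matrix genes together took a smaller share of the NONO IP libraries. They held 6.15% and 6.17% of all gene counts in the inputs against 3.72% and 4.03% in the NONO IP, so that the groups did not overlap. The ratio of the mean shares was 0.629, or 0.560 as shares of protein-coding counts. Fn1 alone held 24.9% of the input reads of the list and 15.1% of its NONO IP reads. Without Fn1 the shares of all counts were 4.63% and 4.63% in the inputs against 3.20% and 3.38% in the NONO IP.

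Among the adhesive and matricellular glycoproteins, all 9 tested of 11 were lower, with a median log2 fold change of −1.40, but they ranged from the largest decrease of the list to some of the smallest. Postn encodes periostin, a matricellular protein of activated fibroblasts. It stood at 376 and 318 CPM in the inputs against 37.2 and 39.3 CPM in the NONO IP, with each pair close together and the groups far apart. The log2 fold change of Postn was −3.16 (SE 0.28, edgeR adjusted p = 4.44e-08), or 8.96-fold lower. Only 1 of 215 coding genes of like input count had a lower fold change.

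Spp1 encodes osteopontin, a secreted phosphoprotein that binds integrins. It counted 94 and 84 input reads against 19 and 27, or 484 and 445 against 64.3 and 96.5 CPM. The NONO IP libraries were the least alike here among genes with at least 100 input reads, yet both lay far below the inputs. Spp1 was lower by a log2 fold change of −2.53 (SE 0.22, adjusted p = 4.44e-08 by edgeR), and 1 of 170 genes of like input count lay lower. The 95% intervals of Postn (−3.75 to −2.58) and Spp1 (−3.00 to −2.06) overlapped, and that of Postn ended below the interval of every gene beyond Spp1 except Vcan and Thbs2, whose intervals were wide, and Fbn2.

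Fn1, fibronectin, the main adhesive glycoprotein and the gene with the most input reads of the list, had 19576 and 19532 CPM in the inputs against 4923 and 6173 CPM in the NONO IP. The inputs were nearly equal, and the NONO IP libraries differed by 0.33 on the log2 scale. The log2 fold change of Fn1 was −1.82 (SE 0.084, edgeR adjusted p = 6.05e-12), below the −0.75 to −0.37 of the 4 collagen genes of like input count. Thbs1, thrombospondin 1, an activator of latent TGF-β, stood at 14955 and 14436 CPM in the inputs against 5566 and 6087 CPM in the NONO IP (−1.33, SE 0.069, adjusted p = 3.31e-11). Its paralog Thbs2 had only 11 and 12 input reads against 4 and 5 (−1.91, SE 0.47, adjusted p = 0.00225), and the call ended by the DESeq2 Wald test (−1.94, adjusted p = 0.0848), without Input replicate 1 (−2.02, 0.0821), without Input replicate 2 (−1.88, 0.142) and without NONO IP replicate 1 (−1.66, 0.0664). The fold stayed about as large, though Thbs2 passed the filter only through its input reads. In each fit without a library, the lone library of its group is assumed to vary as the pair of the other group does, here and for the genes below. The intervals of Thbs1 and Thbs2 overlapped. Thbs3 had 4 and 2 reads against 1 and 3 and was not tested.

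Tnc, tenascin C, a glycoprotein of remodelling tissue, stood at 876 and 974 CPM against 322 and 379 CPM (−1.40, SE 0.14, adjusted p = 1.74e-07 by edgeR). The CCN proteins, matricellular targets of TGF-β and mechanical signalling, were less far from the input. Ccn2, connective tissue growth factor, had 7794 and 7573 CPM in the inputs against 4974 and 5073 CPM in the NONO IP (−0.61, SE 0.069, adjusted p = 9.67e-07 by edgeR). The call for Ccn2 ended with library totals (−0.15, edgeR adjusted p = 0.0547). Ccn1 had 675 and 651 CPM against 359 and 375 CPM (−0.85, SE 0.14). The intervals of the 2 paralogs overlapped, and Ccn1 and Ccn2 lay near the median of coding genes of like input count (differences of 0.061 and 0.062). For Ccn2 this rested on 4 genes. The difference was 0.61 against the 2 of them that were no collagens (a choice made after seeing the data). Where comparison genes were also matched for relative gene length within 1.5-fold, Ccn1 lay 0.53 above their median (18 genes), and no gene matched Ccn2.

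Sparc, osteonectin, a collagen-binding glycoprotein, was lower by little. It had 4379 and 4366 CPM in the inputs against 3332 and 3301 CPM in the NONO IP, with the libraries of each group close together. This was a log2 fold change of −0.40 (SE 0.074, adjusted p = 0.000218 by edgeR), 0.61 above the median of its 7 comparison genes. The call ended with no count filter (adjusted p = 0.225), and the sign turned with library totals (0.063) and with an offset for gene length (0.13). Tgfbi, an adhesive protein induced by TGF-β, had 2 and 0 input reads and none in the NONO IP.

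**Figure D3:**
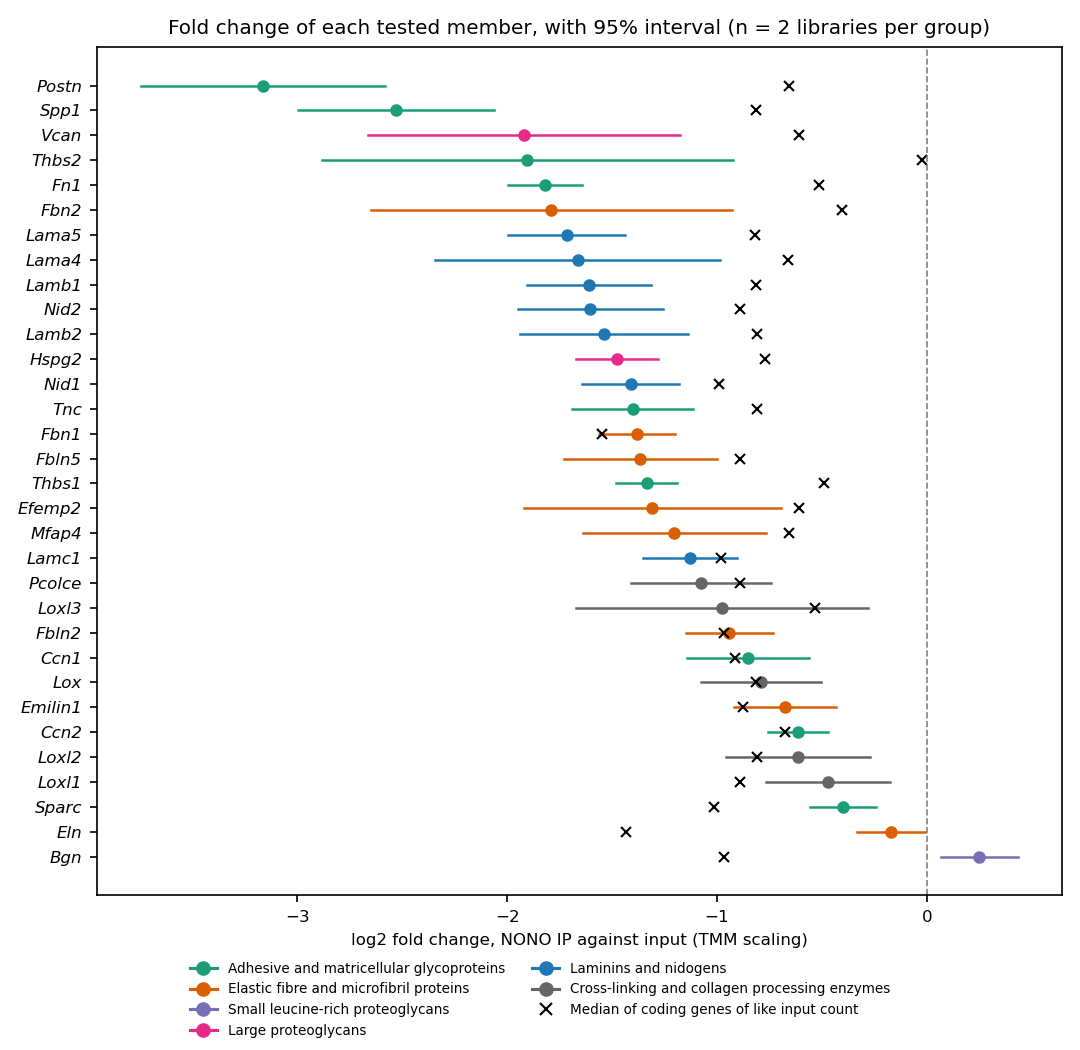
Log2 fold change (NONO IP against input, TMM scaling) of each tested gene in order, coloured by role, with bars for the 95% interval of the edgeR fit (n = 2 libraries per group). Crosses mark the median of coding genes of like input count; Postn and Spp1 lie furthest left, at −3.16 and −2.53, and Eln and Bgn are the genes furthest to the right of their crosses, by 1.27 and 1.22.

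Of the elastic fibre and microfibril proteins, 7 of the 8 tested were lower, with a median of −1.26, and the most abundant per kilobase of them did not pass. Eln, elastin, the rubber-like core of the fibre, stood at 4415 and 4567 CPM in the inputs against 4205 and 3780 CPM in the NONO IP. The NONO IP libraries lay below both inputs, one of them only just. Elastin differed by −0.17 on the log2 scale (SE 0.078, edgeR adjusted p = 0.0714, 95% interval −0.33 to −0.0059), 1.27 above the median of its 6 comparison genes. It passed as lower with at least 50 counts required in 2 libraries (−0.21, adjusted p = 0.0162), without NONO IP replicate 1 (−0.19, 0.0123) and on the RPKM scales (−0.83 on each, limma adjusted p = 0.0162 and 0.0191), and as higher with library totals (0.29, 0.00298).

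The fibrillins, which build the microfibrils around elastin, were lower. Fbn1 stood at 3199 and 3138 CPM in the inputs against 1232 and 1197 CPM in the NONO IP, with little spread in either group. For Fbn1 this gave −1.38 on the log2 scale (SE 0.087, edgeR adjusted p = 4.26e-10), and its interval (−1.56 to −1.20) did not overlap that of Eln. Fbn1 lay 0.17 above the median of its 8 comparison genes, but −0.37 from that of the 22 within 2-fold of its input count. Fbn2 had 16 and 19 reads against 9 and 6 (−1.79, SE 0.41, adjusted p = 0.00133 by edgeR). Fbn2 passed the filter only through those input reads, so a lower level was built into its being tested.

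The fibulins and their relatives tie elastin to microfibrils and to cells. Fbln5, which assembles elastin onto microfibrils, had 556 and 630 CPM against 193 and 268 CPM (−1.37, SE 0.17, adjusted p = 4.38e-06 by edgeR). Efemp2, or fibulin 4, which brings lysyl oxidase to elastin, had 206 and 175 CPM against 57.6 and 96.5 CPM (−1.31, SE 0.29). Fbln2 went from 1824 and 1741 CPM to 958 and 897 CPM (−0.94, SE 0.10), a difference of 0.026 from the median of its 27 comparison genes. Against the 10 of them also within 1.5-fold in relative gene length, the difference was −0.38. Fbln1 had 4 and 3 reads against 0 and 1 and was not tested.

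Emilin1, a glycoprotein at the interface of elastin and microfibrils, had 1025 and 1095 CPM against 630 and 697 CPM (−0.68, SE 0.12, adjusted p = 9.73e-05 by edgeR), a call that ended with library totals (adjusted p = 0.123). Mfap4, a microfibril-associated glycoprotein, had 304 and 355 CPM against 132 and 154 CPM (−1.20, SE 0.21), a call that ended with the length offset (−0.41, adjusted p = 0.115). The groups did not overlap for either gene. Mfap2 and Mfap5 had 1 read each over all 4 libraries. The elastic fibre genes thus spanned −1.79 to −0.17 in log2 fold change, from Fbn2 to Eln. Without Fbn2, which passed the filter only through its input reads, the lowest was Fbn1 at −1.38.

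The only tested matrix gene higher in the NONO IP was the small leucine-rich proteoglycan Bgn. Biglycan binds collagen fibrils and TGF-β and carries chondroitin or dermatan sulfate chains. It counted 355 and 338 input reads against 618 and 620, or 1829 and 1789 against 2093 and 2215 CPM. The libraries of each group lay close together and the groups did not overlap. The log2 fold change of Bgn was 0.25 (SE 0.088, edgeR adjusted p = 0.0213), and 26 of the 27 coding genes of like input count lay lower, their median being −0.97. Actn1, at 0.45, was the exception, and was named after its value was seen.

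The call for Bgn ended by the DESeq2 Wald test (0.25, adjusted p = 0.187), without Input replicate 1 (0.24, 0.195) and without Input replicate 2 (0.18, 0.353), and the sign turned on the RPKM scales (−0.41 on each, limma adjusted p = 0.0614 and 0.0700). On those scales the median of all genes, there taken over 7576 genes rather than 2920, was −0.61 and −0.82. Relative to the median gene, Bgn stood between 0.20 and 0.68 higher on those scales, with TMM, with library totals and with an offset for gene length. It was nearer to the median gene without an input library, at 0.24 against 0.12 without Input replicate 1 and 0.18 against 0.092 without Input replicate 2.

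No paralog of Bgn could be tested beside it. Dcn, decorin, the nearest relative of biglycan, had 2 and 2 input reads and 0 and 0 in the NONO IP. Fmod, fibromodulin, had 2 and 3 against 1 and 0, Ogn, osteoglycin, 2 and 2 against 2 and 3, and Aspn, asporin, 0 and 1 against 0 and 0. Decorin is a message usually abundant in cardiac fibroblasts, and here it was near the limit of detection in every library. The class is therefore represented by a single tested gene.

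The large proteoglycans were both lower, though Vcan passed the filter only through its input reads, so its lower level was built into its being tested. Hspg2, perlecan, the heparan sulfate proteoglycan of basement membranes, had 6048 and 5742 CPM in the inputs against 1886 and 2358 CPM in the NONO IP (−1.48, SE 0.093, edgeR adjusted p = 4.34e-10). Against its 7 comparison genes the difference was −0.71, and it was −0.040 against the 4 of them that were no collagens (a choice made after seeing the data). Vcan, versican, a hyaluronan-binding proteoglycan of provisional matrix, had 38 and 23 reads against 15 and 9 (−1.92, SE 0.35, adjusted p = 0.000202). The groups did not overlap for either gene, though the Vcan libraries were uneven within each group.

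Laminins and nidogens build the basement membrane with perlecan. All 7 were tested and all were lower, between −1.72 and −1.13, with a median of −1.60. The laminin alpha chain gene Lama5 had 1005 and 963 CPM in the inputs against 291 and 307 CPM in the NONO IP (−1.72, SE 0.13, edgeR adjusted p = 8.95e-09). The beta chain gene Lamb1 had 855 and 931 CPM against 271 and 314 CPM (−1.61, SE 0.14), and Lamb2 402 and 429 CPM against 142 and 143 CPM (−1.54, SE 0.19). In each the groups were far apart for the spread within them.

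Lamc1, the gamma chain shared by most laminins, had 2102 and 2000 CPM in the inputs against 843 and 1036 CPM in the NONO IP (−1.13, SE 0.11, adjusted p = 1.22e-07 by edgeR). Its interval (−1.35 to −0.90) did not overlap that of Lama5 (−1.99 to −1.44) and overlapped those of the other 5. Lama4, an alpha chain of vessel and muscle basement membranes, had 33 and 58 reads against 28 and 15 (−1.66, SE 0.32), and was the gene with the widest gap between replicates in both groups. Nid1 and Nid2, nidogens that bridge laminin and collagen IV, were lower by alike amounts (−1.41, SE 0.11, and −1.60, SE 0.16). All 7 lay below the median of coding genes of like input count, with Lamc1 nearest to it at −0.15 and a median difference of −0.73. Of the 7, 5 were among the lowest 25% of those genes. Where comparison genes were also matched for relative gene length within 1.5-fold, Lamc1 lay 0.26 above their median (7 genes), and the others stayed below.

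The cross-linking and collagen processing genes were less far from the input. All 5 tested, the lysyl oxidase genes and Pcolce, were lower, between −1.08 and −0.47, with a median of −0.79. Lox, lysyl oxidase, which oxidises lysines of collagen and elastin for cross-linking, had 721 and 863 CPM in the inputs against 477 and 436 CPM in the NONO IP (−0.79, SE 0.14, edgeR adjusted p = 0.000102). Its paralog Loxl1, needed for elastic fibres, had 768 and 778 CPM against 481 and 636 CPM (−0.47, SE 0.14, adjusted p = 0.00876). Loxl2, which acts on collagen IV, had 433 and 413 CPM against 271 and 282 CPM (−0.61, SE 0.16, adjusted p = 0.00420). The groups did not overlap for any of the 3, but they lay nearer to each other than for the laminins.

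Loxl3 had 20 and 26 reads against 15 and 20 (−0.97, SE 0.33, adjusted p = 0.0185 by edgeR), and the intervals of the 4 lysyl oxidase genes overlapped one another. The calls for Loxl1, Loxl2 and Loxl3 ended with library totals (adjusted p = 0.959, 0.452 and 0.195), by the DESeq2 Wald test (0.106, 0.0956 and 0.177) and with no count filter (0.353, 0.191 and 0.172). Those for Loxl1 and Loxl3 also ended without NONO IP replicate 1 (0.210 and 0.172), and that for Loxl3 without Input replicate 2 (0.107). Loxl3 overlaps Htra2, which had 20 reads in all, in the RefSeq annotation. Pcolce, an enhancer of procollagen C-proteinase, had 613 and 540 CPM against 251 and 297 CPM (−1.08, SE 0.16, adjusted p = 2.31e-05). None of the 5 lay among the lowest or highest 25% of genes of like input count, and their median difference from those genes was 0.022. The difference between these 5 genes and the structural classes was not tested.

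Levels can be compared between genes as RPKM, reads per kilobase of gene scaled to library size, as the authors deposited them. In the inputs, Ccn2 was highest at 1679 ± 23.4 RPKM, followed by Thbs1 at 1313 ± 24.3, Fn1 at 1196 ± 5.84, Sparc at 1047 ± 4.56, Eln at 639 ± 19.4 and Bgn at 380 ± 3.51 (SD, n = 2 for each). These neighbours differed by more than their spread, while Hspg2 (205 ± 6.19), Fbln2 (202 ± 5.30), Nid1 (195 ± 15.3) and Pcolce (192 ± 16.0) after them did not. In the NONO IP the order was Ccn2 at 694 ± 31.3, Sparc at 502 ± 12.3, Eln at 359 ± 15.9, Thbs1 at 330 ± 31.1, Bgn at 286 ± 20.4 and Fn1 at 215 ± 40.9. Fn1 thus moved from the third to the sixth place and Sparc from the fourth to the second, an order that does not depend on how libraries are scaled. In the NONO IP, Thbs1 was nearer to Eln before it and to Bgn after it than their spread.

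Length ran the other way in the matrix genes from the rest. Relative gene length, obtained by dividing counts by RPKM, had a Spearman rho of −0.50 with log2 fold change over the 32 matrix genes and of 0.32 over the 2777 protein-coding genes tested. These are descriptions across genes of the same libraries, and rho was not obtained without Vcan, Fbn2 and Thbs2. The 16 longer matrix genes were all lower, between −1.92 and −0.61 with a median of −1.51. Vcan (at −1.92), Fbn2 and Thbs2 are among these 16 and passed the filter only through input reads. A lower level was therefore built into their being tested. The 16 shorter matrix genes ranged from −3.16 to 0.25 with a median of −0.96. They hold Postn and Spp1 at the low end of the list and Sparc, Eln and Bgn at the high end. With an offset for gene length, 24 of the 32 genes were lower and 1 higher. The median of all genes was then −0.019, and the shares of all genes called were not obtained. Postn was still lowest at −3.04, while Spp1 went to −1.67, above Vcan (−2.54), Lama5 (−2.27), Hspg2 (−2.24), Fn1 (−2.17) and others. The calls for Mfap4, Pcolce (−0.20, adjusted p = 0.302), Ccn1 (−0.26, 0.136), Loxl1 (−0.071, 0.695) and Loxl3 (−0.74, 0.0740) ended there, and the laminins, Fn1, Fbn1 and Hspg2 lay further below the median gene than without it.

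**Figure D4:**
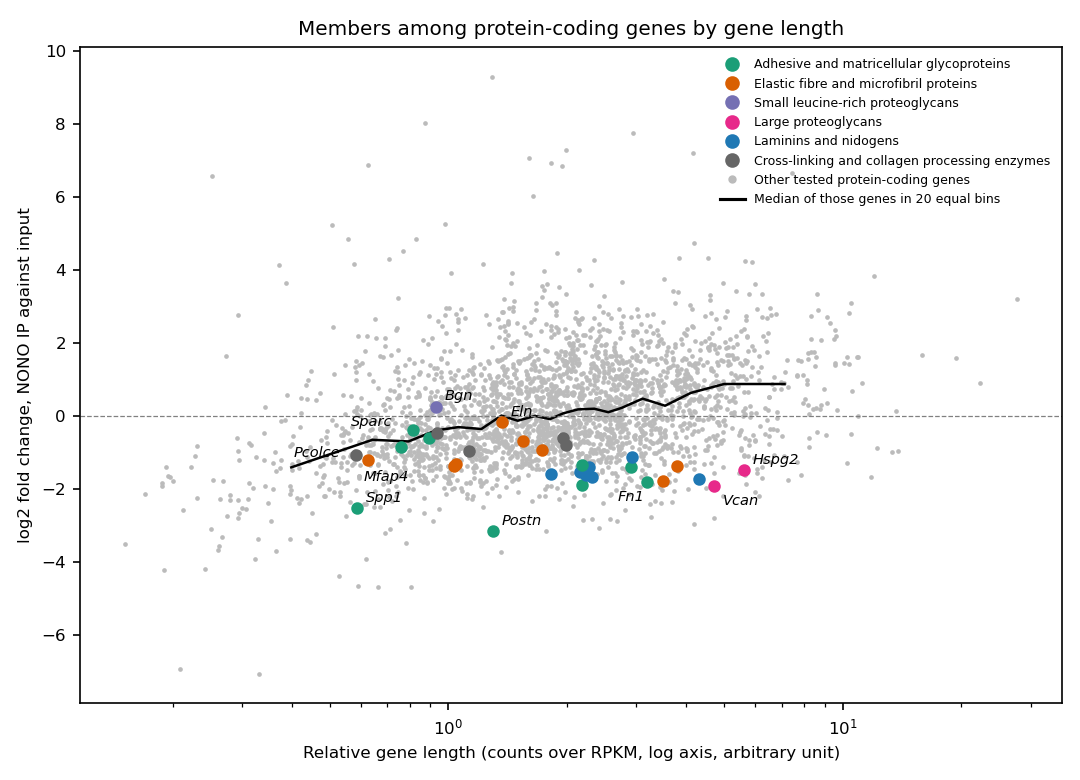
Log2 fold change (NONO IP against input) by relative gene length, in arbitrary units on a log axis, for the 32 tested matrix genes (coloured by role) and other tested protein-coding genes (grey), with the median of the grey genes in 20 bins of equal gene number as a black line. The grey median rises with length, while the longest matrix genes, such as Hspg2 and Vcan, lie well below it and Bgn, among the shorter ones, above.

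The median of all genes moved with the scale and the genes tested. Library totals placed the median of all genes at 0.48 and the deposited RPKM at −0.61 or −0.82 (pseudocounts of 1 and 0.1), against 0.024 with TMM scaling. The RPKM medians were over 7576 genes and the other 2 over 2920, so scale and gene set both differ between them. With library totals, 24 of the 32 matrix genes were lower and 2, Bgn and Eln, were higher. The shares of all genes called lower or higher with library totals were not obtained. Relative to the median gene, the median of the tested genes stayed between −1.46 and −1.15 across the 16 alternatives, of which the filter at 50 counts in 2 libraries left 26 of the 32 genes. Genes of few reads moved apart from the rest on log2(RPKM + 1), where Thbs2 went from −1.93 to −1.14, Vcan from −1.94 to −1.23 and Fbn2 from −1.81 to −1.06 relative to the median gene. In that measure Bgn was above and the other genes below on every scale plotted, except that Sparc was 0.15 above with the length offset.

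**Figure D5:**
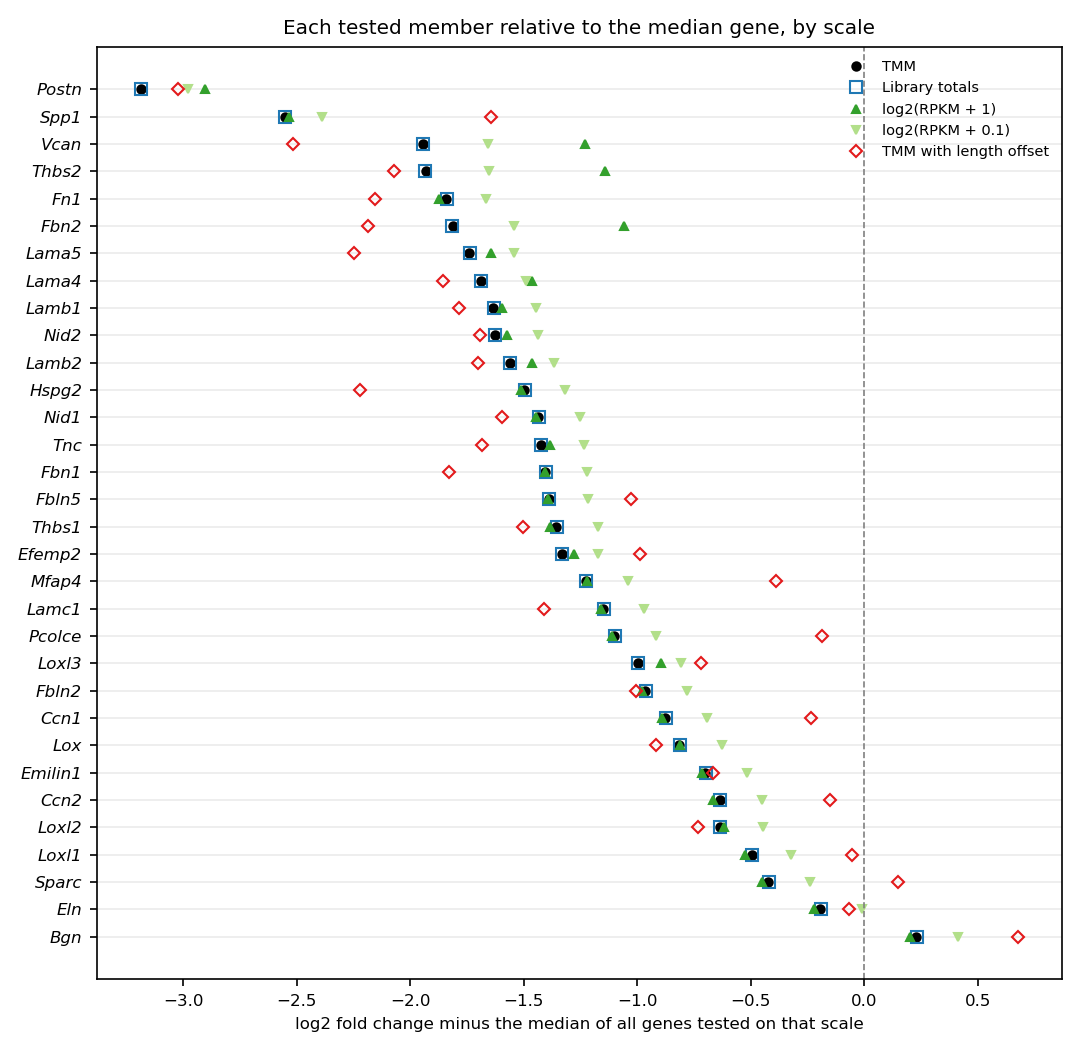
Log2 fold change of each tested gene minus the median of all genes tested on the same scale, for TMM scaling, library totals, log2(RPKM + 1), log2(RPKM + 0.1) and TMM with an offset for gene length. The points of a gene nearly coincide for TMM and library totals; the length offset moves long genes such as Hspg2 to the left and short ones such as Pcolce and Mfap4 to the right.

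Of 148 other matrix genes listed, 64 were tested, of which 36 were lower and 7 higher, or 23 and 13 with library totals. Of all genes tested, 26.9% were lower and 29.8% higher, and of abundant coding genes 68.6% and 13.4%. Of 28 other matrix glycoproteins tested, 20 were lower and none higher, with a median log2 fold change of −1.05. On the higher side, 0 of them had an unadjusted p under 0.05 by edgeR and 0 were called by the DESeq2 Wald test. The 4 with the smallest adjusted p were Ltbp2, a latent TGF-β binding protein of microfibrils (−1.01, SE 0.080), Pxdn, a peroxidase that cross-links collagen IV (−1.80, SE 0.15), Gas6, a ligand of TAM receptors (3024 and 2916 against 1442 and 1518 CPM), and Aebp1 (−1.41, SE 0.12). Of 12 other proteoglycans, 7 were lower and none higher (median −0.76; 0 higher at an unadjusted p under 0.05 by edgeR and 0 by the DESeq2 Wald test), with Acan, aggrecan, at −1.59 (SE 0.25), Sdc3, a syndecan, at 510 and 455 against 264 and 218 CPM, and the glypican genes Gpc4 and Gpc3 at −0.96 (SE 0.16) and −2.24 (SE 0.48). Lama2 was the only other laminin gene tested (−2.35, SE 0.49), on 15 and 13 input reads against 2 and 6. Lama2 and Gpc3 passed the filter only through their input reads, so a lower level was built into their being tested, as for Tgm2 among the enzymes.

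Of 23 enzymes of glycosaminoglycan synthesis and cross-linking, 8 were lower and 7 higher, with a median of −0.033. These shares are near those of all genes tested (26.9% and 29.8%). Among those lower were Ext2, a heparan sulfate polymerase (−1.72, SE 0.31), Tgm2, transglutaminase 2 (−1.78, SE 0.40), Chpf, a chondroitin polymerising factor (−1.18, SE 0.31), and Sulf1, a heparan sulfatase (−0.81, SE 0.22). Hs2st1, a heparan sulfate sulfotransferase, was higher, with 8 and 13 input reads against 86 and 70 (2.29, SE 0.29, edgeR adjusted p = 4.40e-06), though it passed the filter only through its NONO IP reads. So was Chst11, a chondroitin sulfotransferase, with 16 and 21 against 92 and 96 (1.75, SE 0.23, adjusted p = 7.51e-06). Among the 19 enzyme genes that reached the filter's CPM in all 4 libraries, 7 were lower and 4 higher, and among the 24 glycoprotein genes that did so, 18 were lower and none higher. The difference between the lists was not tested.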

How the data were processed

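Read counts per gene in 4 RIP-seq libraries (2 input, 2 NONO IP, grouped and numbered by their titles) were analysed. The counts were deposited without normalisation, as their values show. The authors also deposited RPKM, reads per kilobase at a common library size, per the file headers. HISAT2, HOMER and the build mRatBN7.2 are named without a role, per the submitters' processing notes. Counter, strand setting and gene annotation were not given in the sources used here, so overlapping and antisense genes are uncertain. RNA was treated with DNase and polyadenylated RNA was captured, per the labels' protocols.

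edgeR 4.0.16 (R 4.3.3; quasi-likelihood test, filterByExpr, TMM scaling) was fitted over the whole table, which kept 2920 of 13731 genes, and was tested on simulated data. The simulated data changed few genes, evenly in both directions, so they could not test the scaling where 56.7% of tested genes passed. Benjamini-Hochberg adjustment ran over all tested genes, and calls needed an adjusted p under 0.05. SE is the log2 fold change over the root of F, and intervals are 95% from the fit. CPM use TMM-scaled totals of the tested genes. RPKM alternatives used limma 3.58.1 and genes reaching an RPKM of 1 in 2 libraries, where fold changes of low genes are understated; DESeq2 was version 1.42.0. Length came from counts over RPKM, its library totals resting on 461 genes with 30 or more counts in each library; that total was 2.38-fold larger in the NONO IP. All 42 genes were matched in the RefSeq GRCr8 table, used only for neighbours; Eln, Lama4, Loxl3 and Mfap2 overlap another counted gene. From the other lists, the rule named up to 4 genes of smallest adjusted p in the direction that held more calls, and up to 2 in the opposite one, beside every listed matrix gene and the checks Nono and Col1a1. The genes, lists and alternatives were chosen with earlier results of these data known; lists received no test. Replicates differed by a chi-square per degree of freedom of 1.13 (inputs) and 1.42 (NONO IP), where 1 is sampling noise. Alternatives changed the scaling, test, count filter, pseudocount, length offset, replicate block, gene types and width of the input match, or left out each library in turn.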

Additional observations from a re-analysis of the deposited data

How the results depend on the processing

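Over 16 alternatives (15 for genes that fell under a filter), 20 of the 32 tested matrix genes kept direction and side of the threshold; of 506 values, 33 lost the call, 4 gained one and 7 changed sign. The sign changed for Eln with library totals (0.29) and no count filter (0.049), for Sparc with library totals (0.063), the length offset (0.13) and the length offset with the replicate block (0.13), and for Bgn on log2(RPKM + 1) (−0.41) and log2(RPKM + 0.1) (−0.41). The count of lower genes ran from 23 of 32 (length offset with replicate block) to 34 of 37 (log2(RPKM + 1)). It was 26 of 41 with no count filter and 25 of 26 with at least 50 counts in 2 libraries. The share of all genes called lower was not obtained for the alternatives, so these counts lack their background. The count of higher genes went from 1 to 2 with library totals and to 0 by the DESeq2 Wald test and on both RPKM scales, and was 0 to 1 when a library was left out, being 0 without either input. The median log2 fold change was −0.89 with library totals, −1.15 with no count filter (41 genes), −1.77 and −2.04 on the RPKM scales (37 genes), −1.48 with the length offset and replicate block, and −1.36 to −1.14 when a library was left out, the latter without NONO IP replicate 1. The share ratio was 0.560 over protein-coding counts. Of the other matrix genes, 36 were lower and 7 higher; the counts were 23 and 13 with library totals, 14 and 3 with at least 50 counts in 2 libraries (20 genes tested), while 3 were higher by the DESeq2 Wald test and 1 on each RPKM scale. Apart from fewer or more genes tested, the cause was not tested.

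The replicate block left 30 lower and 1 higher, with a median of −1.35; same-numbered libraries had a correlation of deviations of 0.051 over 2 pairs, so the numbers were not shown to pair the libraries. With the length offset, the block ended the call for Ccn2 (−0.17, adjusted p = 0.0708 by edgeR). Against genes of like input count, 19 to 24 genes lay below the median, with a median difference between −0.55 and −0.45, under the other widths, scales and length match, and without mitochondrial, ribosomal protein and collagen genes, chosen after seeing the data (30 genes). At this depth 10 of the 42 genes could not be tested.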
